A study of Bos taurus with 90 samples.

Results

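The genes described here are the 100 genes whose transcript abundance followed that of haptoglobin (HP) most closely from steer to steer in bovine liver, out of 24616 genes counted. They were taken from the 8987 genes with a mean of at least 5 CPM, which is the number of counts per 1000000 counts of the library. Haptoglobin is a plasma protein made in the liver that binds free haemoglobin, and its transcript is a textbook marker of the acute phase response. In that response, cytokines released during inflammation or tissue injury, with IL-6 among the main ones, reach the hepatocyte and raise the output of a set of plasma proteins. HP, fibrinogen, lipopolysaccharide binding protein (LBP), serpins and complement components belong to this set, and in cattle HP is one of the most responsive of them.

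The 100 genes, called members below, were chosen on measured values. In each library the count of a gene was divided by the library total, scaled to CPM and transformed as log2(CPM + 0.5). The mean of the library's own breed, diet and residual feed intake (RFI) group was then subtracted, and genes were ranked by the Spearman correlation of this deviation to that of HP over the 90 libraries. HP itself and the identifiers named LBP, SERPINA3 and FGG were left out of the ranking. The correlations to HP and among members are therefore a description of the selection and carry no test. Differences between group means were removed before the ranking, so they did not enter it and were tested. The limit of 5 CPM was set on the mean over all libraries, so a gene could pass it through a few high ones. HP is itself a gene that the study called higher in low RFI CH steers under H1 and ZG, from these same libraries. The edgeR fits used here called HP in neither comparison. Genes that follow HP between steers can differ between groups of few steers where HP does. The RFI tests of the members are therefore not independent of the choice of HP.

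The libraries are mRNA-seq of liver punch biopsies of steers of the breeds Charolais (CH) and Holstein-Friesian (HF), sampled at the end of 3 dietary phases. H1 was a high-concentrate diet of mainly rolled barley with restricted grass silage, offered to growing steers. ZG was zero-grazed (cut and carried) grass, also in the growing period, and H2 was the concentrate diet again during finishing. The phases did not adjoin, as the steers ate grass silage after H1 and grazed grass after ZG, without biopsies. RFI is the difference between the feed a steer ate and the feed predicted from its weight and growth, so low RFI steers are the more efficient ones, and steers were ranked anew within breed in each phase. The CH groups held 9 low and 11 high RFI steers under H1, 3 and 3 under ZG, and 9 and 8 under H2. The HF groups held 7 low and 9 high RFI steers under H1, 10 and 8 under ZG, and 5 and 8 under H2. Because the phases came in the same order in all steers, diet, age and time of sampling cannot be told apart in any comparison between diets.

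Library totals ran from 9097695 to 63621304 counts, with a median of 18858293, and between 14212 and 16855 genes had at least 1 count. In 5 libraries the median Pearson correlation of log2(CPM + 0.5) to the other libraries of the same group was under 0.9, and 3 of these 5 were HF high RFI steers under ZG, steers 1798, 2069 and 2242. The other two were HF low RFI steer 5635 under ZG and CH low RFI steer 454 under H2. Ranking genes without these 5 libraries kept 90 of the 100 members. The number 1797 was carried by a CH library under H1 and an HF library under H2, and 94 members were kept without both. Whether the biopsies held cells other than hepatocytes could not be checked by name, because 18 of the 430 symbols on 24 prepared lists of pathways and cell types were matched to an identifier and no list was covered by more than 17.6% of its symbols.

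The counts pair no identifier with a name, and names were taken from the list the study attached to genes it had called for RFI. This names 7 of the 100 members, and the other 93 are unnamed and are described by their rank. The named members are C5, FGA, ACMSD, WWC1, ABCA6, SGPL1 and FCGR2B. Every name thus comes from a gene already selected for a difference between RFI groups in these same libraries, so its RFI values are not independent evidence. The 2 members of the highest rank are given by their identifiers, ENSBTAG00000022395 and ENSBTAG00000022394.

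HP had 11.9 CPM in its lowest library and 22730 CPM in its highest, with a median of 120.5 CPM, and the SD of its deviation from the group mean was 2.44 on the log2 scale. HP was above 1000 CPM in 19 libraries and under 50 CPM in 24. The 6 libraries above 5000 CPM came from 6 groups and all 3 diets. They were CH high RFI steer 419 under H2 with 22730 CPM, HF high RFI steer 2272 under ZG with 15334 CPM, HF low RFI steer 5632 under H1 with 9973 CPM, HF high RFI steer 1639 under H2 with 6545 CPM, HF high RFI steer 1811 under H1 with 6336 CPM and HF low RFI steer 2094 under ZG with 5606 CPM. Libraries of high HP were found in low and in high RFI steers.

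The left-out acute phase genes spanned much of the range of the members. SERPINA3, a serine protease inhibitor of the plasma, had a rho of 0.76 to HP and would have stood at rank 4 had HP alone been left out. LBP, which carries bacterial lipopolysaccharide to its receptor complex, had a rho of 0.53 and would have stood at rank 18. FGG, the gamma chain of fibrinogen, had a rho of 0.40 and would have stood at rank 56.

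The member of rank 1, ENSBTAG00000022395, had a rho of 0.83 to HP, and the member of rank 2, ENSBTAG00000022394, a rho of 0.81. Ranks 3, 4 and 5 had a rho of 0.77, 0.69 and 0.66, and ranks 6 to 15 lay between 0.61 and 0.53. A rho of at least 0.5 was reached by 21 members, a rho from 0.4 up to 0.5 by 30, and the remaining 49 were under 0.4. The decline was smooth at the limit of the list, where ranks 98, 99 and 100 had a rho of 0.3512, 0.3506 and 0.3499 and the next genes 0.3497, 0.3483 and 0.3469. The median rho was 0.40 over the members and 0.054 over all genes ranked.

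**Figure D1:**
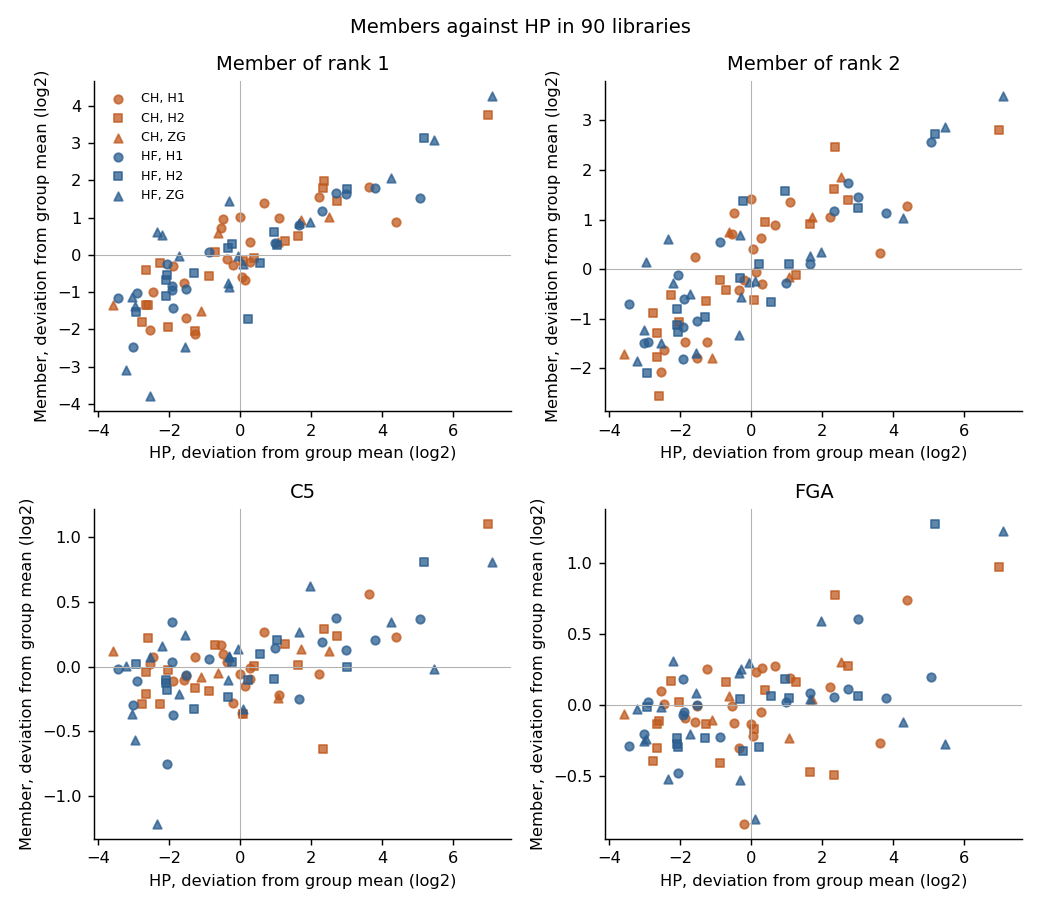
Deviation from the group mean (log2) of 4 members on the vertical axis against that of HP on the horizontal axis, with 1 point per library, colour for breed and symbol for diet. The members of rank 1 and rank 2 follow HP over its whole range (rho of 0.83 and 0.81), while C5 and FGA (rho of 0.46 and 0.41) vary over a narrower range and stand highest in a few libraries.

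C5 is the complement component whose cleavage yields an inflammatory peptide and starts the membrane attack complex. It stood at rank 29 with a rho of 0.46. FGA encodes the alpha chain of fibrinogen, the clotting protein of the acute phase, and stood at rank 48 with a rho of 0.41. These were the members on the prepared lists of acute phase, complement and coagulation genes. Other listed genes were followed where a name was available. F5, coagulation factor V, had a rho of 0.27 and was not a member. The NF-kB inhibitor NFKBIA had a rho of 0.0042, the NF-kB feedback gene TNFAIP3 0.11 and the immediate early gene JUN 0.084. APOC3, an apolipoprotein on the list of negative acute phase genes, had a rho of -0.092, and the haem synthesis enzyme ALAS1 one of -0.091.

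The other named members are not acute phase proteins by their textbook roles. ACMSD, an enzyme that turns tryptophan breakdown away from NAD synthesis, stood at rank 50 with a rho of 0.41. WWC1, a scaffold protein of the Hippo pathway, stood at rank 65 with a rho of 0.39. ABCA6, a lipid transporter of the ATP-binding cassette family, stood at rank 75 and SGPL1, the lyase that degrades sphingosine 1-phosphate, at rank 79, both with a rho of 0.38. FCGR2B, an inhibitory receptor for IgG found on immune and endothelial cells, stood at rank 84 with a rho of 0.37. In bulk liver, a change in the number of cells that carry such a gene and a change in RNA per cell cannot be told apart.

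The members differed greatly in how far they moved. The SD of the deviation ranged from 0.17 to 1.88 on the log2 scale, with a median of 0.41 against 0.30 over all 8987 genes. It was above 1 in 10 members, against 1.36% of all genes, 0.3 to 1 in 67 and under 0.3 in 23. Of the 10 widely varying members, 7 stood within the first 20 ranks. The member of rank 1 went from 6.20 to 2987 CPM with a median of 171.1 CPM, and the member of rank 2 from 24.1 to 3082 CPM with a median of 283.9 CPM. The member of rank 6 had a median of 0.713 CPM and reached 107.8 CPM in its highest library. Its mean of 5.76 CPM passed the limit of 5 CPM through its high libraries. The members of rank 10, 51 and 85 also had medians under 5 CPM (4.93, 4.37 and 2.52 CPM). The member of rank 12 had the largest SD and went from 0.455 to 389.6 CPM. At the other end, the member of rank 11 stayed between 2857 and 7642 CPM with an SD of 0.21.

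Members also included genes with many reads. In all, 15 members had a mean above 1000 CPM, against 1.34% of the genes ranked, and 19 had a mean under 10 CPM, against 23.8%. FGA had a median of 12270 CPM (6806 to 31132) and C5 a median of 2275 CPM (870 to 4831). The member with the highest mean, of rank 21, had 19986 CPM. Together the members took 7.01% of all counts in the median library, from 4.93% to 15.2%, although they were 1.11% of the genes ranked. The highest share, 15.2%, was in CH steer 419 under H2, followed by HF steer 2272 under ZG with 14.4% and HF steer 1639 under H2 with 13.5%. The libraries with the 2 highest HP values also had the 2 highest shares. CPM is a share of reads, and because the length of the genes was not used, levels of different genes are not compared as expression.

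The members also varied with each other. Over the 4950 pairs of members, the median Spearman correlation of the deviations was 0.31 and 97.7% were above 0, while the median over all pairs of the 8987 genes was 0.092 with 61.2% above 0. The first principal component of the members held 37.3% of their variance and the second 12.3%. That of all 8987 genes held 43.0%. Only the members were scaled to equal SD, so these shares cannot be compared. The median deviation of the 100 members, taken in each library, ranged from -0.42 to 0.89. Its Spearman correlation to the deviation of HP was 0.75 (n = 90 libraries). Without the 2 libraries in which HP lay farthest from its group mean, the correlation was 0.73. The values of a library share depth and composition effects, and the choice of members fixes the sign. The median deviation had a correlation of 0.16 to the log2 library total, 0.27 to the number of genes with a count and 0.32 to the first principal component of all 8987 genes, and HP itself had 0.10, 0.14 and 0.13. When that component was taken out before ranking, 84 of the members were kept.

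In the 6 libraries with HP above 5000 CPM, 82 to 98 members were above the mean of their group. HF steer 2272 under ZG had 98 members above the mean of its group and CH steer 419 under H2 had 97, with median deviations of 0.89 and 0.84. HF steer 5632 under H1 had 95 members above its group mean, with a median deviation of 0.51, and CH high RFI steer 364 under H1, with 3119 CPM of HP, had 93 and 0.52. HF steers 1811 under H1, 1639 under H2 and 2094 under ZG had 91, 83 and 82 members above their group means. The match was not complete. HF low RFI steer 1961 under ZG, with an HP deviation of 4.26, had 58 members above its group mean and a median deviation of 0.044. CH low RFI steer 1792 under H1, with an HP deviation of 3.64, had 63 and 0.11. HF low RFI steer 2220 under H2 had an HP deviation of 3.01, but 25 members above the group mean and a median deviation of -0.15. Among the libraries of lowest HP deviation, CH low RFI steer 788 under ZG (-3.58) had 11 members above its group mean. HF high RFI steer 2069 under H1 (-3.44) had 9. The group mean of steer 788 rests on 3 steers, among them steer 357 with 2465 CPM of HP and 96 members above it. Others of low HP deviation fell less. CH high RFI steer 1816 under ZG, with the lowest HP of 11.9 CPM and a deviation of -1.10, had 39 members above its group mean. HF steers 1909, 1212 and 1668 under ZG, with HP deviations of -3.03, -2.97 and -2.19, had 38, 41 and 60 members above their group means.

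**Figure D2:**
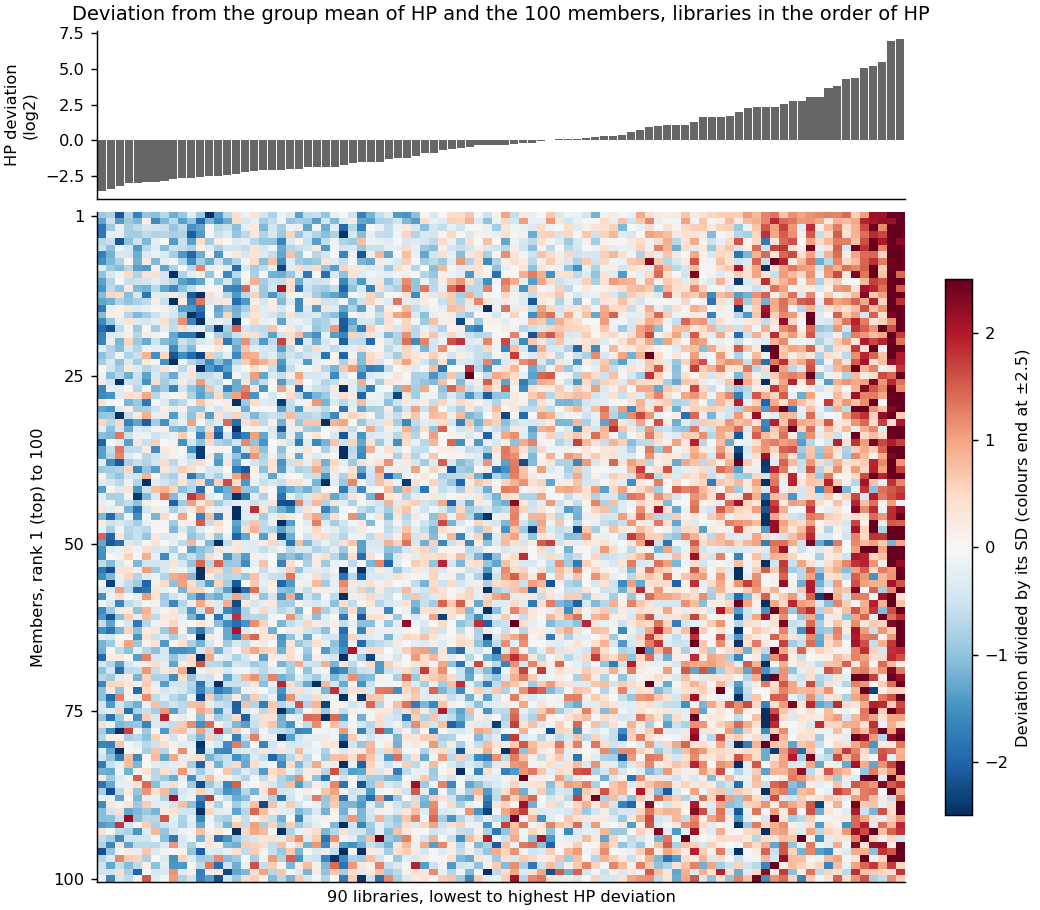
The upper panel shows the HP deviation from the group mean (log2) of each of the 90 libraries as bars, in rising order from left to right. In the lower panel each row is 1 of the 100 members and each column 1 library in the same order, coloured by the deviation divided by its SD. The 2 libraries at the right (CH steer 419 under H2 and HF steer 2272 under ZG) are high in 97 and 98 members, and the pattern weakens towards the lower ranks.

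Within each breed the members also followed HP, which describes the values they were chosen on, but the order of genes differed. All 100 members had a rho above 0 within the 47 HF libraries (0.16 to 0.83, median 0.46) and 99 within the 43 CH libraries (-0.011 to 0.83, median 0.44). The member of rank 1 had a rho of 0.83 in each breed. C5 had 0.32 in CH and 0.58 in HF, and ACMSD 0.24 and 0.54, while WWC1 had 0.51 in CH and 0.30 in HF. When genes were ranked in a single breed, 36 of the 100 members were among the first 100 in CH and 55 in HF.

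In 14 steers, libraries from more than 1 phase showed how HP and its members changed within an animal. HF steer 5632 had 9973 CPM of HP under H1, 21.5 CPM under ZG and 210 CPM under H2, with median member deviations of 0.51, -0.032 and 0.028. CH steer 364 had 3119 CPM under H1 and 97.1 CPM under H2, with deviations of 0.52 and -0.015. HF steer 1639 had 119 CPM under ZG and 6545 CPM under H2, with deviations of -0.046 and 0.43. In each of these 3 steers the median member deviation in the other phases was near 0. The HP deviation in those phases was -2.53 under ZG and 0.23 under H2 in steer 5632. It was -0.88 in steer 364 and 0.099 in steer 1639. In 12 of the 14 steers the phase with the highest HP was the phase with the highest median deviation, which describes the values the members were chosen on. The other two were CH steer 1831, with 277 CPM under H1 and 899 CPM under ZG and deviations of 0.011 and -0.057, and HF steer 2065, with 55.5 CPM under H1 and 13.3 CPM under ZG and deviations of -0.28 and -0.17. HF steer 2071 kept a positive deviation of the members, 0.38 under H1 and 0.25 under H2, with 3620 and 349 CPM of HP. HF steer 2069 kept a negative one, -0.28 under H1 and -0.34 under ZG, with 41.1 and 37.4 CPM. HP stayed on the same side of its group mean in 8 of the 14 steers and the members in 7. Between phases 6 of the 14 moved from one RFI class to the other, so that the group mean they are set against changed too.

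**Figure D3:**
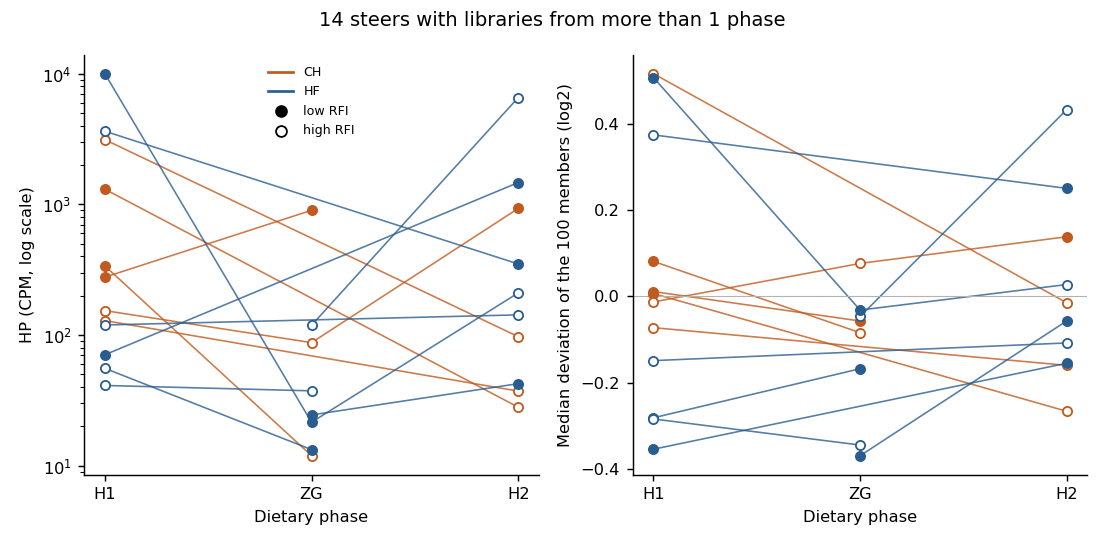
HP (CPM, log scale, left) and the median deviation of the 100 members from the group mean (log2, right) in the 14 steers with libraries from more than 1 phase, with 1 line per steer, colour for breed, filled points for low and open points for high RFI. HF steer 5632 falls from 9973 to 21.5 CPM of HP between H1 and ZG, which are HP deviations of 5.07 and -2.53 from the group means. Its median member deviation falls from 0.51 to -0.032.

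The first tested question was whether the members differed between low and high RFI steers, and log2 fold changes below are of low over high RFI. In each breed and diet, tested separately by the quasi-likelihood method of edgeR and called at a Benjamini-Hochberg adjusted p under 0.1 over all genes, 0 members were called. For CH under H1 edgeR called 0.0155% of the 12920 genes tested. For CH under ZG and H2, HF under H1, ZG and H2, and the mean of the 6 comparisons, it called 0 members and 0% of all genes. All 100 members passed the filter on low counts, apart from 1 that failed it for CH under H2 and 1 for HF under H2. The genes tested with edgeR, 12417 to 13945 per comparison, included genes under the mean of 5 CPM that members had to reach. The share called among the 8987 genes ranked was not computed for any comparison. The members had a median log2 fold change of -0.088 for CH under H1, -0.12 under H2, -0.057 for HF under H1, -0.062 under ZG and -0.12 under H2. The median of all genes tested lay between -0.0024 and 0.0081 in these 5 comparisons. Single libraries decided the sign of these medians for CH under H2, where the value was 0.071 without steer 419, and for HF under ZG, where it was 0.092 without steer 2272, the library of highest HP in each case. For HF under H2 it went from -0.18 without steer 2071 to -0.077 without the library numbered 1797.

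At an unadjusted p under 0.05, 15 of 100 members passed for CH under H1, against 11.7% of all genes. Of these 15 members, 10 were lower and 5 higher in low RFI steers. For CH under H2 8 of 99 passed, all lower, against 2.86%. For HF under H1 9 of 100 passed, 8 lower and 1 higher, against 6.63%. For HF under ZG 5 of 100 passed, 4 lower and 1 higher, against 2.09%. For HF under H2 4 of 99 passed, 3 lower and 1 higher, against 3.47%. Over the mean of the 6 comparisons it was 4 of 100, all lower, against 6.39%. Because members were selected for varying together, these counts are not sums of independent genes. With DESeq2, 2 members were called for CH under H1 (1.18% of all genes), 4 for CH under ZG (1.26%), 1 for HF under H1 (0.187%), and 0 for CH under H2 (0.022%), for HF under ZG (0.0109%), for HF under H2 (0.0278%) and for the mean of the 6 comparisons (0.0101%). These 7 are the 7 named members. The study made its calls with DESeq2 on these same libraries, and names came only from its called genes. The match between called and named members is therefore no separate result.

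The widest RFI difference of the members was seen in CH steers under ZG, the smallest comparison with 3 steers per group. There the median log2 fold change of the members was 0.40, against 0.037 over all genes tested, and 82 of 100 members had a log2 fold change above 0, against 52.9% of all genes. In 27 members an unadjusted p was under 0.05, all of them higher in low RFI, against 13.5% of all genes in either direction. In 18 members every low RFI steer was above every high RFI steer, against 11.5% of the genes ranked, and in 1 member every low RFI steer was below, against 17.7%. None passed the adjusted threshold with edgeR. HP had 35.5, 899 and 2465 CPM in these low RFI steers and 11.9, 16.9 and 87.4 CPM in the high RFI steers. Its log2 fold change was 4.90 (edgeR, SE of 1.57 and adjusted p of 0.365). For CH under H1 the log2 fold change of HP was 0.72 (SE 0.91) and under H2 -2.29 (SE 1.28). For HF it was 0.0088 (SE 1.29) under H1, -0.91 (SE 1.41) under ZG and -1.20 (SE 1.54) under H2. HP was not called by edgeR in any of them. Because the members were chosen to follow HP between steers, their difference in CH under ZG is not evidence separate from that of HP.

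The median of the members depended on 1 animal. Low RFI steer 357, with 2465 CPM of HP, had the highest value of each of the 7 named members among the low RFI steers. Without it the median log2 fold change of the members fell to 0.16. With each of the other 5 steers left out in turn it lay between 0.33 and 0.50. The low RFI steer 788 had low HP, and its values of both members of highest rank lay within the range of the high RFI steers.

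Among the named members in CH under ZG, ABCA6 had 168, 172 and 218 CPM in low RFI steers and 69.8, 86.9 and 103.02 CPM in high RFI steers, without overlap. Its log2 fold change was 1.18 (edgeR, SE of 0.19 and adjusted p of 0.365). FCGR2B had 41.7, 65.3 and 75.9 CPM in low and 29.7, 31.3 and 33.8 CPM in high RFI steers. Its log2 fold change of 1.01 (SE 0.22) had the same adjusted p from edgeR. C5 had 2255, 2894 and 2904 CPM in low and 1490, 1523 and 1736 CPM in high RFI steers, which gave a fold change on the log2 scale of 0.84 (SE 0.20). FGA had 12639, 14245 and 18300 CPM in low and 8739, 9704 and 9849 CPM in high RFI steers, which gave a fold change on the log2 scale of 0.75 (SE 0.20). These 4 genes were separated between the RFI groups, including in steer 788, and none was called by edgeR. ENSBTAG00000022395 had 52.7, 172 and 272 CPM in low and 14.8, 63.96 and 82.1 CPM in high RFI steers, which overlap. ENSBTAG00000022394 also overlapped, with 100, 296 and 1198 CPM in low and 24.1, 143 and 176 CPM in high RFI steers.

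**Figure D4:**
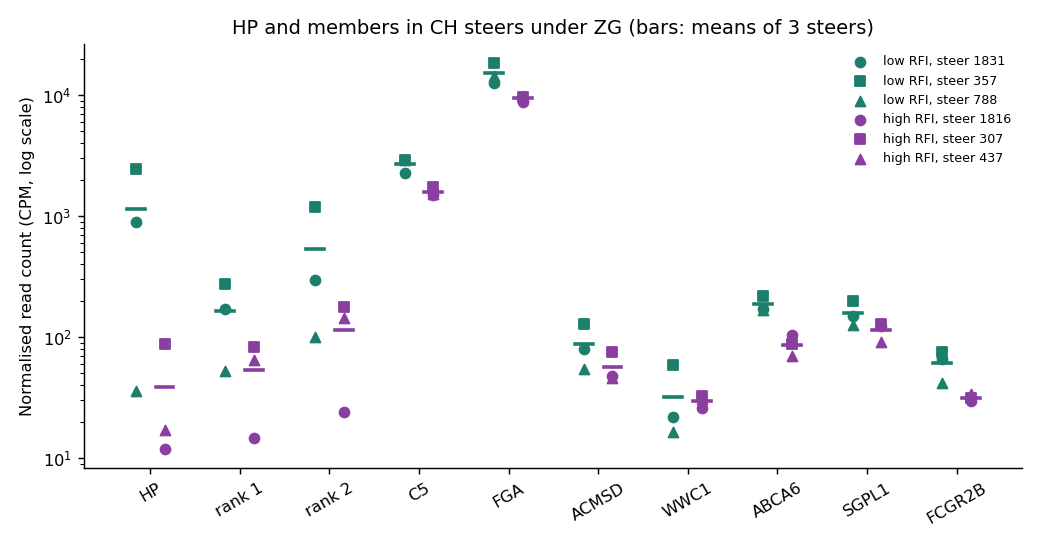
CPM on a log scale of HP, the members of rank 1 and 2 and the 7 named members in the CH steers under ZG, with 1 symbol per steer and a bar at the mean of the 3 steers of each RFI group (green for low, purple for high). C5, FGA, ABCA6 and FCGR2B are higher in every low RFI steer than in every high RFI steer, while HP and the members of rank 1 and 2 overlap.

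In each of the other 5 comparisons the RFI groups overlapped for these 4 genes. C5 had a median of 2397 CPM (2144 to 3675) in CH low and 2269 CPM (1726 to 2675) in CH high RFI steers under H1, and 2160 CPM (1378 to 2631) and 1983 CPM (1738 to 4831) under H2. FGA had a median of 13430 CPM (9489 to 20537) in HF low and 12862 CPM (7643 to 31132) in HF high RFI steers under ZG. ABCA6 had a log2 fold change of 0.16 (SE 0.12) for CH under H1, -0.0039 (SE 0.26) under H2 and -0.17 (SE 0.18) for HF under ZG. FCGR2B had one of 0.45 (SE 0.20) for CH under H1, -0.50 (SE 0.20) for CH under H2 and -0.58 (SE 0.22) for HF under ZG, so its sign was that of CH under ZG in the first and the opposite in the others. The difference between these fold changes was not tested.

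WWC1, SGPL1 and ACMSD had their lowest p for RFI elsewhere. Under H1 in CH, WWC1 had a median of 35.0 CPM (22.3 to 50.7, n = 9) in low and 49.3 CPM (33.0 to 125.7, n = 11) in high RFI steers, and the log2 fold change was -0.71 (edgeR, SE of 0.21 and adjusted p of 0.256). SGPL1 had a median of 129 CPM (112 to 159) in low and 159 CPM (122 to 346) in high RFI steers, and the log2 fold change was -0.49 (SE 0.15) with the same adjusted p. Both overlapped between the groups. SGPL1 had a log2 fold change of 0.54 (SE 0.21) in CH under ZG, of the opposite sign, and of -0.48 (SE 0.18) in HF under H2, neither of them called. Under H1 in HF, ACMSD had a median of 39.2 CPM (35.1 to 56.4, n = 7) in low and 66.2 CPM (38.2 to 163.7, n = 9) in high RFI steers, which gave a fold change on the log2 scale of -1.04 (edgeR, SE of 0.25 and adjusted p of 0.556). In CH under H2 ACMSD had one of -0.61 (SE 0.18), and in CH under ZG one of 0.70 (SE 0.32), neither of them called.

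The second question was how the members differed between diets, tested in a single edgeR fit of the 12 groups with the mean of both breeds and both RFI groups. Between ZG and H1, 43 of 100 members were called, 18 higher and 25 lower under ZG. Of all 13945 genes tested, 60.5% were called, 30.7% higher and 29.7% lower. The share of the members was below that of all genes. Members also spread more between steers (median SD of 0.41 against 0.30 over the 8987 genes ranked). The part of this in the lower share was not tested. As in the RFI tests, the genes tested included genes under the 5 CPM limit of the members. Without the 2 libraries of highest HP, CH steer 419 under H2 and HF steer 2272 under ZG, 16 members were higher and 38 lower, against 62.3% of all genes called. Of the 15 members of highest rank, 5 were called. The called members had log2 fold changes of 0.17 to 0.93 where higher and -1.29 to -0.14 where lower.

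Both members of the highest rank were lower under ZG than under H1. ENSBTAG00000022395 had medians of 163 and 244 CPM in CH low and high RFI steers under H1 and 172 and 63.96 CPM under ZG, and in HF 282 and 351 CPM under H1 and 137 and 66.6 CPM under ZG. Its log2 fold change was -1.15 (edgeR, SE of 0.49 and adjusted p of 0.0404). ENSBTAG00000022394 had a log2 fold change of -1.09 (edgeR, SE of 0.44 and adjusted p of 0.0309), with medians of 317, 390, 430 and 642 CPM in the 4 groups under H1 and 296, 143, 135 and 102 CPM under ZG. The ranges overlapped in each breed. HP had a log2 fold change of -0.63 (edgeR, SE of 0.80 and adjusted p of 0.518) in the same fit and was not called.

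Among the named members, WWC1 fell from H1 to ZG with a log2 fold change of -0.58 (edgeR, SE of 0.19 and adjusted p of 0.00985). FCGR2B rose by 0.24 (edgeR, SE of 0.12 and adjusted p of 0.0879), a call that was lost under 11 of 20 alternatives, among them DESeq2 and the fits that left out CH steer 1831, 307, 357 or 437 under ZG. C5, FGA, ABCA6, SGPL1 and ACMSD were not called, with log2 fold changes of -0.056, 0.20, 0.089, -0.060 and 0.076. The smallest p-values among the members higher under ZG belonged to the members of rank 82, 56 and 31, with log2 fold changes of 0.47 (SE 0.074), 0.42 (SE 0.070) and 0.58 (SE 0.11). Among those lower under ZG they belonged to ranks 67, 92 and 83, with -0.67 (SE 0.13), -0.69 (SE 0.18) and -0.77 (SE 0.21).

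Between H2 and ZG, 25 of 100 members were called, 18 higher and 7 lower under H2, against 17.5% of all genes, with 9.24% higher and 8.26% lower. The order of these shares depended on the libraries. Without the 5 libraries of low correlation to their group, 35 members were called against 45.4% of all genes, and without CH steer 788 under ZG 22 members against 23.2%. Without CH steer 1831 or CH steer 437 under ZG it was 16 members, against 10.5% and 11.2%, and without CH steer 1816 17 members against 15.1%. ENSBTAG00000022395 rose by 1.33 (edgeR, SE of 0.50 and adjusted p of 0.0712) and ENSBTAG00000022394 by 1.22 (edgeR, SE of 0.45 and adjusted p of 0.0668), and both calls were lost when CH steer 1816, 1831, 437 or 788 under ZG was left out. The call of ENSBTAG00000022395 was lost without HF steer 2220 under H2 as well. This comparison uses the same ZG libraries as the one before it. SGPL1 rose by 0.34 (edgeR, SE of 0.13 and adjusted p of 0.0679), a call that was lost without CH steer 1831 or 437 under ZG. ACMSD rose by 0.37 (edgeR, SE of 0.15 and adjusted p of 0.0869), a call that was lost under 11 of 20 alternatives, among them the fits without HF steers 1797, 2071 or 5612 under H2 and without CH steers 1816, 1831, 437 or 788 under ZG. The members of rank 32, 47 and 25 had the smallest p-values among those higher under H2, with log2 fold changes of 0.39 (SE 0.081), 0.57 (SE 0.12) and 0.32 (SE 0.072). Those of rank 86, 28 and 10 had the smallest among those lower, with -0.89 (SE 0.15), -0.95 (SE 0.20) and -0.98 (SE 0.24).

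Between H2 and H1, the 2 concentrate phases, 56 of 100 members were called, 35 higher and 21 lower under H2. Of all genes 75.4% were called, 38.8% higher and 36.7% lower. Without the 2 libraries of highest HP 31 members were higher and 32 lower, against 75.5% of all genes called. The members of rank 1 and 2 were not called, with log2 fold changes of 0.19 (SE 0.39) and 0.13 (SE 0.36), and neither was HP with 0.37 (SE 0.67). ACMSD rose by 0.44 (edgeR, SE of 0.12 and adjusted p of 0.000807), SGPL1 by 0.29 (edgeR, SE of 0.11 and adjusted p of 0.0139) and ABCA6 by 0.20 (edgeR, SE of 0.096 and adjusted p of 0.0519), and the call of ABCA6 was lost under 4 of 20 alternatives, DESeq2 and the fit without the 2 libraries of highest HP among them. C5 and FGA had 0.17 (SE 0.093) and 0.19 (SE 0.11), and each had 0.101 as its adjusted p. The left-out FGG rose by 0.36 (edgeR, SE of 0.12 and adjusted p of 0.00551). The members of rank 56, 81 and 44 had the smallest p-values among those higher under H2, with log2 fold changes of 0.54 (SE 0.062), 0.41 (SE 0.055) and 0.52 (SE 0.071). Those of rank 86, 28 and 83 had the smallest among those lower, with -0.84 (SE 0.13), -0.98 (SE 0.17) and -0.70 (SE 0.18).

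**Figure D5:**
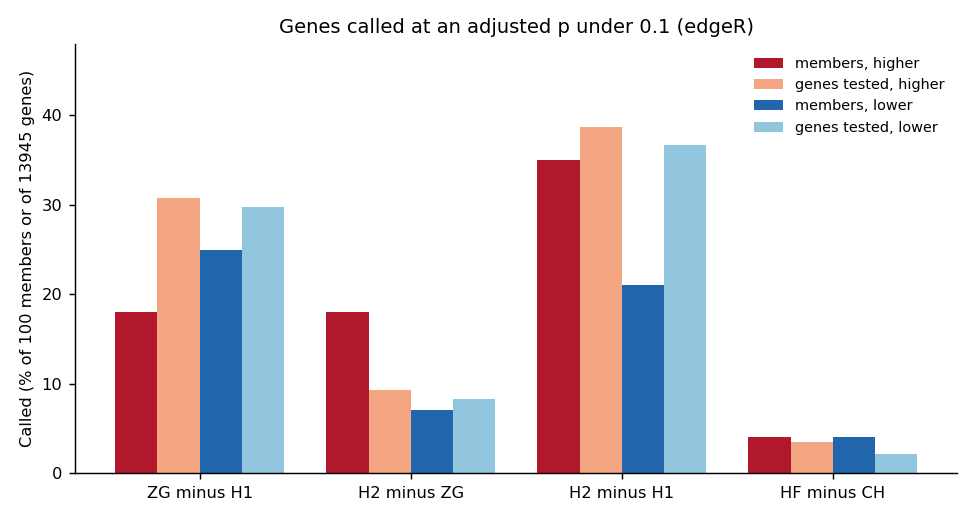
Share of the 100 members (dark bars) and of all 13945 genes tested (light bars) called at an adjusted p under 0.1 with edgeR, in percent, split into higher (red) and lower (blue) in the first-named diet or breed. Between ZG and H1, 18% of the members were higher and 25% lower, against 30.7% and 29.7% of all genes.

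The last question was whether the members differed between breeds. Over the mean of the 3 diets, 8 of 100 members were called, 4 higher and 4 lower in HF, against 5.54% of all genes, 3.43% higher and 2.12% lower. No named member was among them, and neither were the members of rank 1 and 2, with log2 fold changes of 0.32 (SE 0.36) and 0.13 (SE 0.33). HP had one of 1.09 (edgeR, SE of 0.65 and adjusted p of 0.464). The members of rank 41, 32 and 56 had the smallest p-values among those higher in HF, with log2 fold changes of 0.35 (SE 0.084), 0.20 (SE 0.061) and 0.18 (SE 0.057). Those of rank 86, 98 and 91 had the smallest among those lower, with -0.42 (SE 0.11), -0.56 (SE 0.16) and -0.22 (SE 0.070). The count was 1 without CH steer 1816 under ZG (3.2% of all genes), 3 without CH steer 1831 (4.17%), 5 without CH steer 307 (4.13%) and 5 without the 5 libraries of low correlation (6.89%). The change from H1 to ZG was also compared between breeds. In that comparison edgeR called 0 members and 0% of all genes, 2 members had an unadjusted p under 0.05 against 3% of all genes, and DESeq2 called 0 members and 0.00504% of all genes.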

How the data were processed

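Per the labels and the study's methods, liver RNA was sequenced as single-end reads, which the authors aligned with STAR to UMD3.1 and counted per Ensembl gene. The submitters' processing notes give STAR 2.5.3a, and the study's methods name an earlier release. They deposited raw counts without normalization, and multi-mapping, strand and GC content could not be re-examined here. Groups came from the labels for breed, diet and RFI status, and steers were numbered as in the library titles. CPM in the text are counts divided by library totals (0.5 was added before log2). Comparisons were tested by quasi-likelihood in edgeR 4.0.16 (R 4.3.3; TMM factors, filterByExpr, robust estimation), with p-values adjusted by Benjamini-Hochberg over all genes, and the SE is the log2 fold change over the square root of F. Alternatives were DESeq2 1.42.0, its size factors, no filter, an adjusted p under 0.05, all 12 groups together, limma 3.58.1 with or without the steer as a replicate block, and left-out libraries. Of the 90 libraries, 30 came from 14 steers sampled more than once, and the steer number pairs them (within-steer correlation of 0.124). Members, lists and tests were chosen with earlier results of these data known. Genes singled out were the 15 members of highest rank, members on the prepared lists, up to 3 called members per direction with the smallest p, the genes around rank 100, and HP with the 3 left-out genes, and the other named members and the members of widest spread were added after their values were seen. Unnamed members beyond the first 2 are given by rank. Fits and ranking were tried on simulated data. There the genes made to follow HP were tied to it more closely than most members, and the other genes varied independently. The simulation is therefore no measure of the ranking in these data. Sequences and positions were not used here.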

Additional observations from a re-analysis of the deposited data

Results flagged for a closer look

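In groups of 4 to 10 steers, single values lay far from the rest of their group (Dixon's 95% limit on log2(CPM + 0.5)) in 12 of the 81 combinations of 9 groups with 9 genes, the 7 named members and the members of rank 1 and 2. Chance marks about 1 in 20 groups, but that rate is no measure for these values, since the members were chosen for deviations within groups that follow HP and are not independent. Of the 12 values, 8 came from 3 libraries of high HP, as that choice favours. HF high RFI steer 1639 under H2 stood above its group for C5 with 4347 CPM (others up to 2645), for FGA with 28444 CPM (others up to 12296), for ABCA6 with 249 CPM (others up to 153) and for ENSBTAG00000022395 with 1276 CPM (others up to 177). CH high RFI steer 419 under H2 stood above its group for C5 with 4831 CPM (others up to 2646), for WWC1 with 90.8 CPM (others up to 45.6) and for ABCA6 with 273 CPM (others up to 122). HF high RFI steer 2272 under ZG stood above its group for ENSBTAG00000022394 with 1482 CPM (others up to 210.4).

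The other 4 values were spread over 4 steers. CH low RFI steer 1792 under H1 had 3675 CPM of C5 (others up to 2622) and HF high RFI steer 2071 under H1 had 19551 CPM of FGA (others up to 13591). HF low RFI steer 2220 under H1 was low for FGA with 9680 CPM (others from 13008), and HF low RFI steer 5635 under ZG was low for WWC1 with 7.61 CPM (others from 18.8). Steer 5635 is among the 5 libraries with the lowest correlation to their group.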

How the results depend on the processing

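The log2 fold changes recomputed were the 18 called by edgeR, or by DESeq2 between RFI groups, in the named members and the members of rank 1 and 2. Of their 281 values 0 changed sign, 41 lost a call and 8, all RFI differences, gained one, and the other printed fold changes were not recomputed. DESeq2 called 2 members for CH under H1, 4 for CH under ZG and 1 for HF under H1, and all 12 groups in a single fit called 2 for CH under H2 and 1 for HF under H1, each against 0 with edgeR. At an adjusted p under 0.05, the members called were 15 of the 25 between H2 and ZG and 4 of the 8 between breeds. Single libraries were left out in the groups of at most 5 steers, 11 of the 90 libraries, which gave 16 to 26 members between H2 and ZG, 1 to 8 between breeds, 36 to 51 between ZG and H1 and 55 to 60 between H2 and H1. Ranking in CH or HF alone kept 36 or 55 members, and leaving out the same 11 libraries singly 90 to 98. With a replicate block for steer added to limma, 50 members were called between ZG and H1 (63.5% of all genes), 28 between H2 and ZG (17.3%), 64 between H2 and H1 (75.6%), 7 between breeds (5.46%) and 0 over the mean of the RFI comparisons, and without the block 23 between H2 and ZG (15.8%), so the pairing moved no count by over 1.5 times. Within a breed and diet each steer occurs once, so no steer is paired in the 6 separate RFI comparisons. Alternatives chosen after seeing the data left out the 5 libraries with low correlation to their group, which gave 5 members between breeds, or the 2 libraries of highest HP, which kept 91 members of the list. The cause of these differences was not tested.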

Other observations

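The interferon-induced gene IFI44 had a rho of 0.16 to HP over the 90 libraries and the small heat shock gene HSPB1 one of 0.15. The inducible chaperone HSPA1A had 0.015, the drug-metabolizing cytochrome CYP3A5 -0.012 and the transcription factor MYC -0.074. None of these 5 genes was a member, and the highest of them would have stood at rank 1213. M-SAA3.2, a serum amyloid A gene of the acute phase, had a mean of 1.25 CPM and fell under the minimum of 5 CPM, so it was not ranked.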
